A study of Homo sapiens with 24 samples.

Results

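The 44 collagen genes were examined in HT-144, an established human melanoma line taken from a metastasis. Members were the protein-coding genes of GENCODE release 44 whose symbol is COL, a number, A and a number, and all 44 were among the 58735 genes counted. The study transfected the cells for 3 days, in serum-free medium with insulin, transferrin and selenium, with reagents against SREBF1, the gene of a transcription factor that controls fatty acid synthesis genes. There were 3 control groups: Mock (transfection reagent without an oligonucleotide), siNegative (a non-targeting siRNA at 50 nM) and ASO-Neg (a non-targeting antisense oligonucleotide, or ASO, at 5 nM). The 3 SREBF1-targeting groups were siSREBF1 (a pool of siRNAs at 50 nM), ASO-SREBF1-S1 and ASO-SREBF1-S4 (antisense oligonucleotides at 5 nM). Each group was 1 library of polyadenylated RNA, sequenced on 4 lanes that were summed, so that a group has no replicate and single-library ratios carry no p-value. All cells came from 1 line, and the labels name no separate cultures.

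Collagens are secreted or membrane-bound proteins in which 3 chains wind into a triple helix, and many types need chains from different genes. Fibrillar collagens build fibers, type IV forms the sheet of basement membranes, type VI forms beaded filaments, and the FACIT collagens (fibril-associated, with interrupted helices) decorate fibers. In skin most collagen is made by fibroblasts, while the basement membrane under the epidermis, on which melanocytes sit, also holds chains from keratinocytes.

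Libraries held 12916478 to 47900277 gene counts, with ASO-SREBF1-S1 the deepest and Mock the shallowest. Levels are CPM, gene counts scaled to library size with TMM factors. SREBF1 ranged from 217 to 249.7 CPM over the controls and from 55.0 (siSREBF1) to 77.1 (ASO-SREBF1-S1) over the targeting libraries, so the target was low in all 3 of them. All 10 melanocyte markers examined, among them SOX10 and PMEL, reached 1 CPM, with a summed level of 5274 to 6758 CPM in the controls and 4652 to 6047 CPM in the targeting libraries. Of 10 fibroblast markers 7 reached 1 CPM, with FBN1, LUM and FAP the highest and a summed level of 262.5 to 285 CPM in the controls and 235 to 265 CPM in the targeting libraries; THY1, POSTN and PRRX1 stayed under 0.3 CPM. Of 7 keratinocyte markers only KRT10 reached 1 CPM and KRT1 had no count; VWF and KDR of 6 endothelial and LYZ of 6 immune markers did. The part of other cells in the collagen levels was not tested.

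Of the 44 collagen genes, 30 reached 1 CPM in at least 1 library and 22 had a mean of at least 5 CPM over the 6 libraries. Collagen reads were concentrated in a few genes: COL1A2, COL4A2, COL5A2 and COL4A1 held 66.1% of the summed collagen CPM, and 8 genes had a mean of at least 100 CPM. Per kilobase of the Ensembl canonical transcript, the scale on which genes can be compared, the order of mean levels was COL1A2 (134.6 CPM per kb), COL4A2 (85.9), COL9A3 (69.7), COL5A2 (65.3), COL4A1 (51.6), COL6A1 (32.8), COL15A1 (24.2), COL6A2 (23.9), COL27A1 (13.7) and COL18A1 (12.3). The ranges over the 6 libraries did not overlap between COL1A2 and COL4A2, COL5A2 and COL4A1, COL4A1 and COL6A1, or COL6A2 and COL27A1; the other 5 pairs of neighbors in this order overlapped. When the length of all annotated exons was used instead, COL1A2 stayed first and COL5A2 came second, ahead of COL9A3 and COL4A2.

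**Figure D1:**
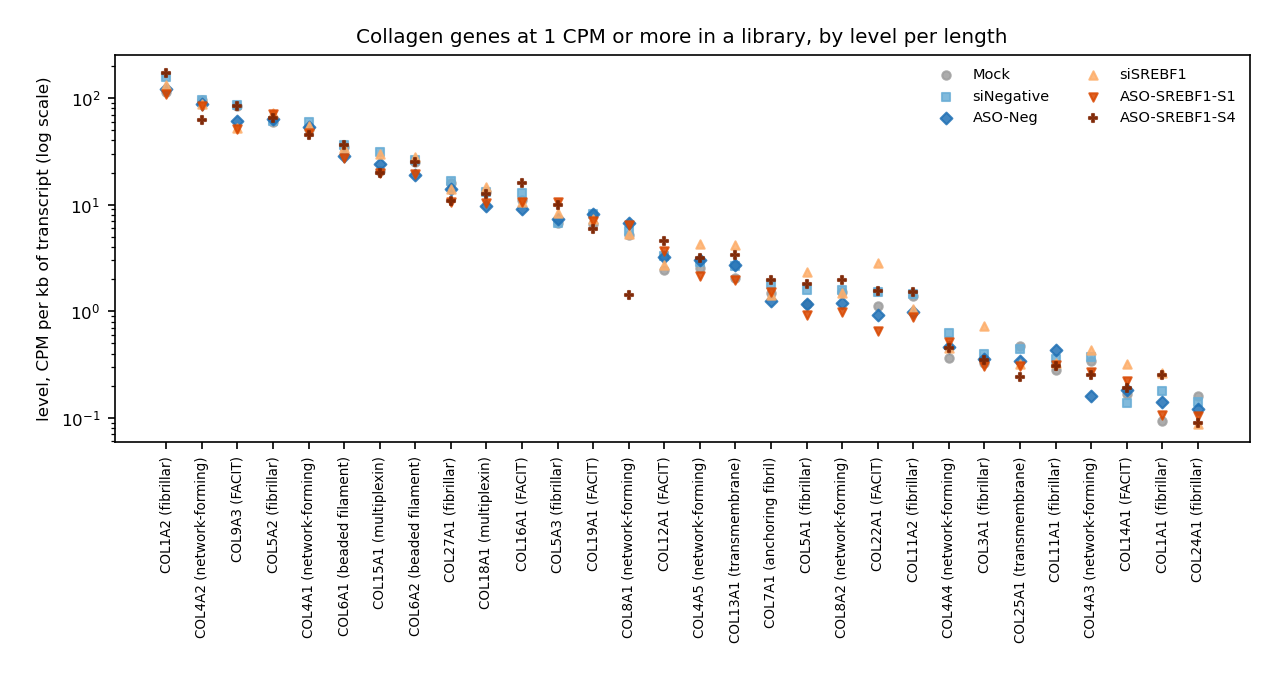
Level of each of the 30 collagen genes that reached 1 CPM, in CPM per kilobase of transcript on a log scale, with 1 symbol per library and genes in order of their mean. COL1A2 leads at a mean of 134.6 CPM per kb and COL1A1 is next to last; the ASO-SREBF1-S4 symbol of COL8A1 lies below those of the other libraries.

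Fibrillar genes were the largest class, with 10 of 11 members at 1 CPM or more and 39.3% (Mock) to 48.2% (ASO-SREBF1-S4) of the collagen CPM. Values in this and the next paragraphs are CPM in the order Mock, siNegative, ASO-Neg, siSREBF1, ASO-SREBF1-S1 and ASO-SREBF1-S4. COL1A2 (ENSG00000164692, GRCh38 chromosome 7, 94394895 to 94431227), the alpha 2 chain of type I collagen, had 575, 798, 614, 676, 558 and 875. It was high in siNegative and ASO-SREBF1-S4, and the control and targeting libraries overlapped. COL5A2, a chain of the type V collagen that nucleates fibrils, had 405, 413, 438, 495, 487 and 439.7, with all 3 targeting libraries above the highest control. COL5A3, another type V chain, had 41.9, 41.9, 45.3, 51.6, 65.0 and 61.1, again without overlap between the sides. COL5A1, the chain present in most type V molecules, had 9.97, 13.3, 9.95, 19.6, 7.76 and 15.1, and was highest in siSREBF1 and lowest in ASO-SREBF1-S1. For COL5A1 23.9% of the counts of both strands lay on the opposite strand, the highest share among the 30 expressed genes. COL27A1, a fibrillar collagen known from cartilage, had 125, 129, 109.9, 111, 81.9 and 84.1, and was lowest in both SREBF1 ASO libraries. COL11A2, a chain of the type XI collagen of cartilage fibrils, had 8.95, 9.27, 6.36, 6.79, 5.62 and 9.79 with overlapping sides. COL11A1, COL3A1 (the homotrimeric type III collagen of skin and vessels) and COL24A1 stayed between 0.597 and 4.03. COL2A1, the cartilage fibril collagen, never reached 1 CPM.

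Of the network-forming genes, 7 of 9 reached 1 CPM. COL4A1 and COL4A2, the chains of the ubiquitous basement membrane network, had 333, 386, 347, 356, 306 and 296, and 617, 619, 569, 572, 541 and 405. Both were lowest in ASO-SREBF1-S4, and COL4A1 varied over a narrower range than COL4A2. COL4A5, a chain of the specialized basement membrane networks of kidney and skin, had 16.7, 19.0, 19.7, 27.7, 14.0 and 20.6, with siSREBF1 highest and ASO-SREBF1-S1 lowest. COL8A1 (ENSG00000144810, GRCh38 chromosome 3, 99638475 to 99799226), a short-chain collagen of vessel walls and the corneal endothelium, had 28.7, 31.0, 37.0, 29.5, 35.2 and 7.82. Its other 5 libraries lay between 28.7 and 37.0, and ASO-SREBF1-S4 alone lay below. COL8A2, the partner of COL8A1, had 7.06, 7.34, 5.53, 6.87, 4.605 and 9.11, with ASO-SREBF1-S4 highest. COL4A4 ranged from 3.61 to 6.28. COL10A1, the collagen of hypertrophic cartilage, had no count in any library.

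The FACIT class had 6 of 10 members at 1 CPM. COL9A3, a chain of the type IX collagen known from cartilage, had 209, 213, 153, 132, 127 and 212. It was low in ASO-Neg, siSREBF1 and ASO-SREBF1-S1 and level with Mock in ASO-SREBF1-S4. COL16A1, which associates with fibrils and microfibrils, had 59.4, 69.7, 49.7, 57.0, 57.9 and 86.3, and COL12A1, which binds type I fibrils, had 28.6, 38.5, 37.8, 31.6, 43.2 and 53.8. Both were highest in ASO-SREBF1-S4. COL19A1, a rare collagen of basement membrane zones, had 57.7, 71.5, 70.7, 63.4, 61.7 and 52.1. COL22A1, known from the junctions of muscle and tendon, had 7.22, 9.67, 5.95, 17.99, 4.15 and 9.91, and stood apart in siSREBF1. COL14A1, which also binds fibrils, had 1.33, 1.11, 1.47, 2.54, 1.76 and 1.54.

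In the other classes, COL6A1 had 147, 153, 119, 141, 114 and 153, and COL6A2 87.1, 91.1, 65.1, 97.1, 67.3 and 85.7; both encode chains of beaded filaments, and both were lowest in ASO-Neg and ASO-SREBF1-S1. The multiplexins, basement membrane collagens whose C-terminal parts give endostatin-like fragments, were both expressed. COL15A1 had 108, 163, 125, 157, 104 and 102 and was high in both siRNA libraries. COL18A1 had 70.9, 71.6, 52.7, 79.4, 55.6 and 67.8. COL7A1, which forms the anchoring fibrils of skin, had 13.7, 16.6, 11.4, 13.1, 13.9 and 17.97. Of the 4 transmembrane collagens 2 were expressed. COL13A1, a membrane collagen of adhesion sites, had 6.51, 8.41, 8.54, 13.2, 6.18 and 10.6, while COL25A1, known from neurons, lay between 1.85 and 3.61. COL17A1, the hemidesmosome collagen of keratinocytes, stayed at or under 0.185 CPM. The 14 genes that never reached 1 CPM topped out at 0.677 CPM, that of COL6A3 in ASO-SREBF1-S4; 3 counts, taken here as the limit of detection for counting error alone, correspond to 0.0626 to 0.232 CPM depending on the library.

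Chains that assemble together were often expressed at unequal levels. Type I collagen usually has alpha 1 chains from COL1A1 and an alpha 2 chain from COL1A2. COL1A1 had 0.549, 1.06, 0.824, 1.57, 0.622 and 1.48 CPM, from 117 counts over all libraries, against 83720 counts for COL1A2. Per length, COL1A2 exceeded COL1A1 by 503 (siSREBF1) to 1220 (Mock) times. COL6A1 and COL6A2 were within 1.19 to 1.504 times of each other per length, but the remaining usual type VI chain, COL6A3, had 53 counts in all, so that COL6A1 stood 795 times higher per length over the summed libraries. The sum of all libraries gave 732 times for COL9A3 over COL9A1 (42 counts). Type IX collagen contains chains from both and from COL9A2, which had 10 counts in all.

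**Figure D2:**
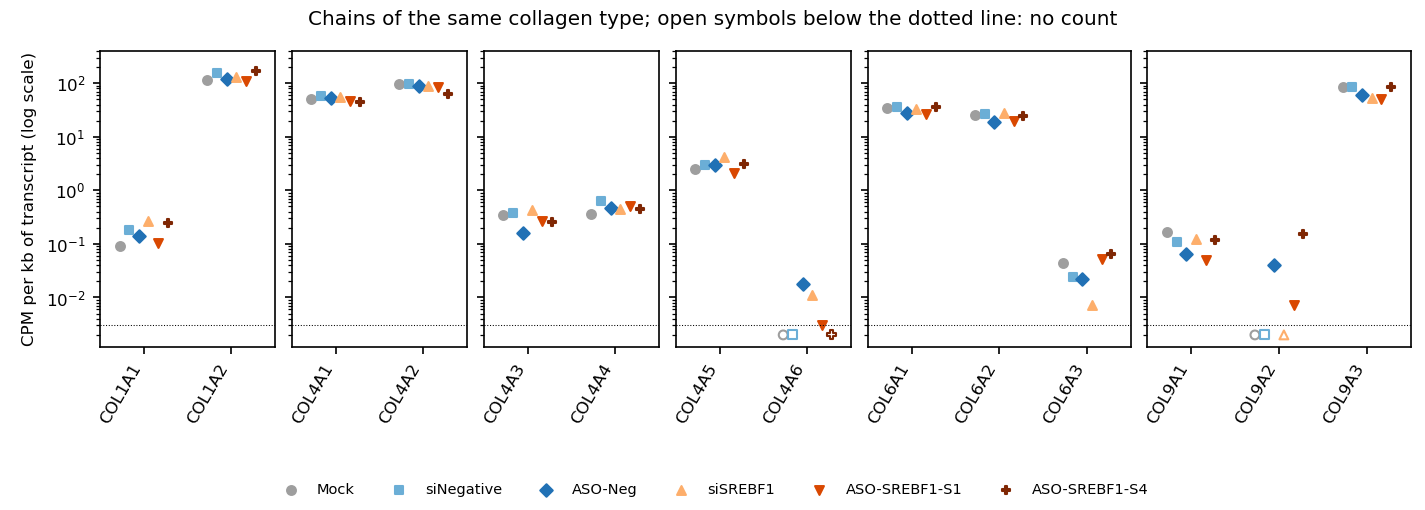
Level per kilobase of transcript (log scale) of chains that belong to the same collagen type, with 1 symbol per library; open symbols under the dotted line mark libraries with no count. COL4A1 and COL4A2 lie close together in all 6 libraries, whereas COL1A1, COL4A6, COL6A3, COL9A1 and COL9A2 lie far below a partner.

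The 6 type IV genes lie in head-to-head pairs whose starts face each other, so each pair is read outward from the DNA between its starts. Starts here and below are those of RefSeq, and GENCODE places the outer ends of some of these genes elsewhere. Bases between the RefSeq starts are shown because the genes of a pair share them while their levels differ. The RefSeq promoter table (GRCh38.p14) holds 250 bases before each start, and printed are the bases where the windows of a pair overlap (plus strand, 5′ to 3′): all 126 bases between the starts of COL4A1 and COL4A2, but 82 of the 418 between COL4A4 and COL4A3 and 121 of the 379 between COL4A6 and COL4A5. Capitals mark matches to the CCAAT box (CCAAT, or ATTGG on the other strand) and the GC box (GGGCGG).
COL4A1 and COL4A2, chr13:110307158-110307283: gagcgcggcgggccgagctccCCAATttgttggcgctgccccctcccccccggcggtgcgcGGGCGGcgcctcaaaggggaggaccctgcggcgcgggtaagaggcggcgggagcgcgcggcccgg
COL4A4 and COL4A3, chr2:227164374-227164455: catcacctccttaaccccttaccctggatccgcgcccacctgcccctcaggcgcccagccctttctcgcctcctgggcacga
COL4A6 and COL4A5, chrX:108439588-108439708: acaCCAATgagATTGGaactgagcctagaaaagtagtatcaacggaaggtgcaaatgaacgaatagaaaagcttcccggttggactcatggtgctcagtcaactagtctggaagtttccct

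The RefSeq starts of COL4A1 and COL4A2 are 127 bases apart, although GENCODE begins COL4A2 at 110305812, inside COL4A1. The 126 bases between the RefSeq starts are 80.2% G and C. In a window of that length before the start, 25.1% of all genes hold a CCAAT box and 38.6% a GC box. COL4A1 stood at 0.532 (Mock) to 0.721 (ASO-SREBF1-S4) times COL4A2 per length. The RefSeq starts of COL4A4 and COL4A3 are 419 bases apart. In GENCODE COL4A4 reaches 227164453 and COL4A3 begins at 227164624. Nearly all of the bases printed for this pair therefore lie inside the GENCODE extent of COL4A4. The 82 bases printed are 67.1% G and C and hold neither motif, while the whole 250 bases before COL4A3 hold a GC box. Both genes were low: COL4A3 had 2.75, 2.99, 1.30, 3.51, 2.18 and 2.03 CPM, or 0.350 to 0.973 times COL4A4 per length. The RefSeq starts of COL4A6 and COL4A5 are 380 bases apart, and the 121 bases printed are 44.6% G and C with 2 CCAAT matches. Only COL4A5 of that pair was expressed: COL4A6 had 4 counts in all 6 libraries together, and COL4A5 stood 590 times higher per length over the summed libraries.

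The bases before each start were searched on both strands for further motifs in the 32 collagen genes that the promoter table holds, 250 bases each. The sterol regulatory element TCACNCCAC was in none of them (1.09% of 27305 genes have it), and the E-box CACGTG, which SREBP factors can also bind, was in none either (7.73% of genes). A GC box was in 21 of 32 (46.2% of genes), a CCAAT box in 11 (37% of genes), a TATA box (TATAAA) in 7 (13% of genes) and an AP-1 site (TGANTCA) in COL10A1 alone (8.06% of genes). The searched motifs do not overlap in the stretches printed above. A match is a description of the letters in this window and not a binding site. Collagen genes missing from the promoter table were not searched, and the counts above do not cover them. COL1A2, COL5A2, COL9A3, COL6A1, COL8A1 and COL22A1 appear under none of these motifs, and at least some of them were among the genes not searched.

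With the SREBF1 siRNA pool, collagens at 10 CPM differed from the matched control by under 2-fold. In siSREBF1 over siNegative, COL22A1 had a log2 ratio of 0.89 (95% counting interval 0.61 to 1.18), COL13A1 0.65 (0.34 to 0.97), COL5A1 0.56 (0.31 to 0.81) and COL4A5 0.54 (0.33 to 0.75). The lowest was COL9A3 at -0.69 (-0.77 to -0.61), and COL1A2 had -0.24 (-0.28 to -0.20). Of 20 collagen genes at 10 CPM in either library 0 differed by at least 2-fold, where 0.517% of all such genes did, and 3 differed by at least 1.5-fold (COL13A1 and COL22A1 higher, COL9A3 lower), where 2.71% of all genes did. The collagen median was -0.09 against -0.01 for all genes, with 8 above and 12 below 0. Under a 1 CPM minimum COL14A1 also passed 2-fold (1.19, interval 0.37 to 2.03, from 34 and 22 counts), and without lane 1 COL22A1 did. The share of all genes past 2-fold was not computed at the 1 CPM minimum. The intervals cover counting error only, not the spread between cultures.

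With ASO-SREBF1-S1 the ratios of collagens with a mean of at least 5 CPM spanned the narrowest range of the 3 reagents. Over ASO-Neg, COL5A3 had the highest log2 ratio among them, at 0.52 (0.41 to 0.64), and COL22A1 the lowest at -0.52 (-0.87 to -0.16). COL4A5 had -0.49 (-0.68 to -0.29), COL13A1 -0.47 (-0.76 to -0.17) and COL27A1 -0.42 (-0.50 to -0.34). Of 17 collagen genes at 10 CPM 0 differed by at least 2-fold (0.502% of all genes) and 0 by at least 1.5-fold (2.28%). The collagen median was -0.07 against 0.01 for all genes.

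ASO-SREBF1-S4 was the targeting library in which a collagen at 10 CPM differed from its matched control by over 2-fold. COL8A1 was lower than in ASO-Neg by a log2 ratio of -2.24 (-2.53 to -1.97, from 127 and 629 counts), and it was the 1 of 19 collagen genes at 10 CPM past 2-fold, where 0.72% of all genes were. Leaving out 1 lane at a time gave -2.37 to -2.16 for COL8A1. Its partner COL8A2 had 0.72 (0.34 to 1.11), so that COL8A1 per length went from 5.67 times COL8A2 in ASO-Neg to 0.726 times in ASO-SREBF1-S4. COL16A1 had 0.79 (0.67 to 0.92), COL7A1 0.65 (0.39 to 0.92) and COL5A1 0.60 (0.31 to 0.89). With COL8A1 these made 4 genes past 1.5-fold, where 3.56% of all genes were. ASO-Neg was the lowest control for COL16A1 (49.7 CPM), COL7A1 (11.4) and COL5A1 (9.95, level with Mock), and the highest for COL8A1 (37.0). For the first 3 of these, siNegative had 69.7, 16.6 and 13.3 CPM, against 86.3, 17.97 and 15.1 in ASO-SREBF1-S4. COL1A2 had 0.51 (0.48 to 0.55) and COL9A3 0.47 (0.39 to 0.54). COL4A2 had -0.49 (-0.53 to -0.44) against -0.23 (-0.28 to -0.17) for COL4A1. The collagen median was 0.36 against -0.02 for all genes, with 13 above and 6 below 0. In ASO-Neg over siNegative, given below, the collagen median was -0.30.

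**Figure D3:**
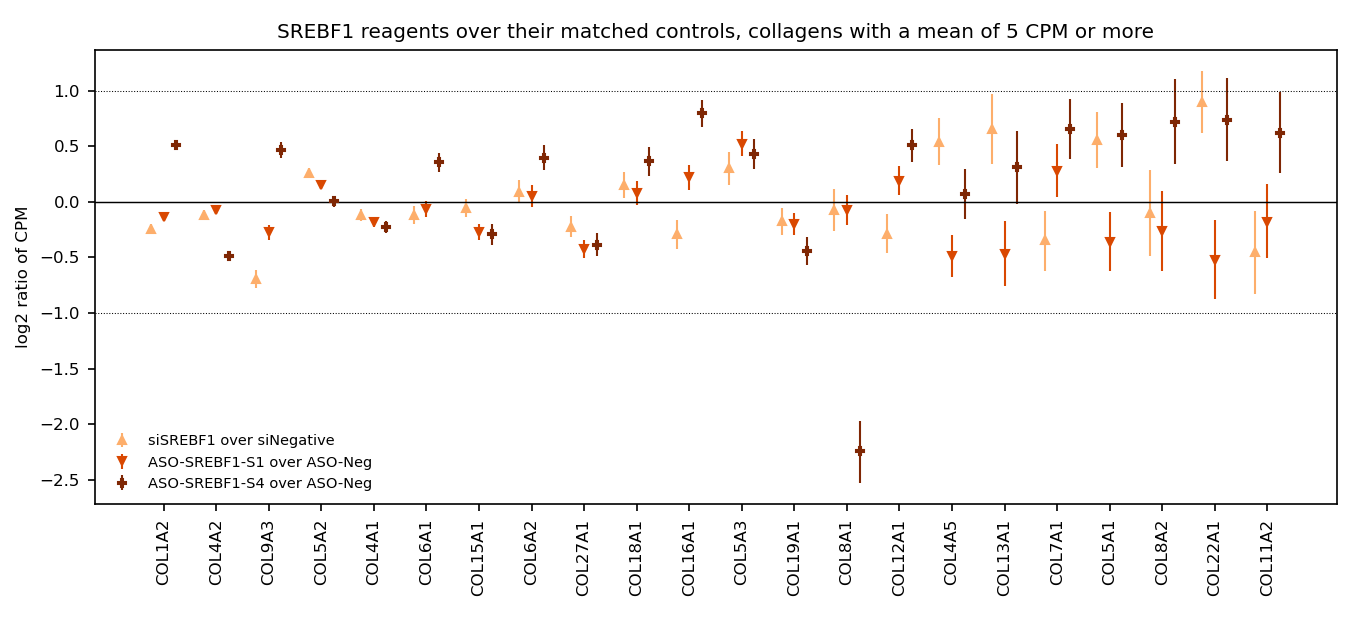
Log2 ratio of CPM of each SREBF1 reagent over its matched control for the 22 collagen genes with a mean of at least 5 CPM; bars are 95% counting intervals from 1 library per side, and dotted lines mark 2-fold. COL8A1 in ASO-SREBF1-S4 lies at -2.24, past the lower line, and no other point passes a line.

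Both SREBF1 ASOs were given at the same dose, and ASO-SREBF1-S4 over ASO-SREBF1-S1 compares them directly. COL8A1 had -2.17 (-2.44 to -1.91), and was the 1 of 19 genes past 2-fold at 10 CPM (1.12% of all genes). COL22A1 had 1.26 (0.95 to 1.56) at 9.91 against 4.15 CPM, just under the 10 CPM minimum. Past 1.5-fold were 5 genes, with COL1A2 (0.65, interval 0.62 to 0.68), COL5A1 (0.96, 0.72 to 1.20), COL9A3 (0.74, 0.68 to 0.80) and COL13A1 (0.78, 0.50 to 1.05) higher and COL8A1 lower (4.64% of all genes). At a 1 CPM minimum, where the share of all genes was not computed, COL1A1 passed 2-fold as well (1.25, interval 0.41 to 2.07, from 24 and 30 counts). SREBF1 itself differed by -0.13 (-0.23 to -0.03) between them. Of the 10 melanocyte markers 8 were also lower in ASO-SREBF1-S4 (list median -0.52, range -1.21 for TYRP1 to 0.47 for ERBB3), and TYRP1 alone was past 2-fold. The part of these differences in the collagen ratios was not tested.

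**Figure D4:**
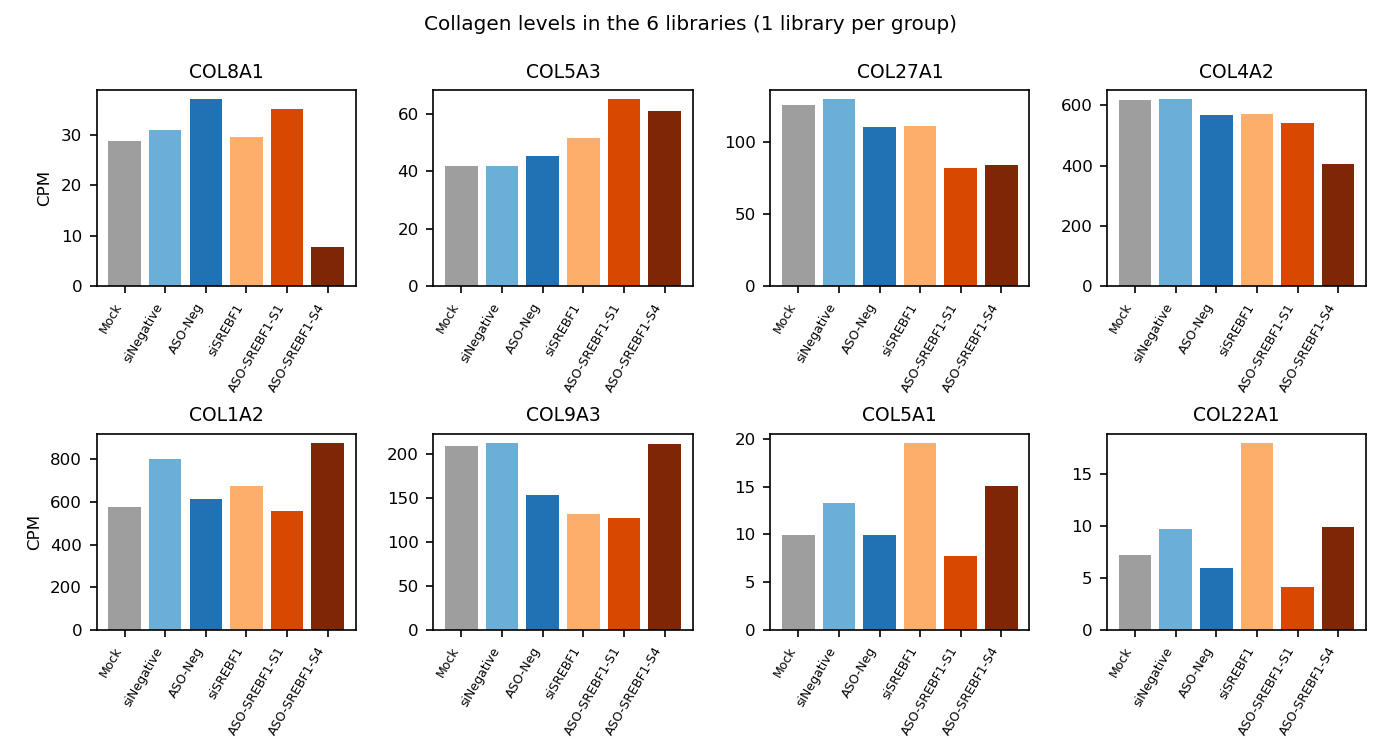
CPM of 8 collagen genes in the 6 libraries, 1 bar per library on an axis from 0, without error bars because each group is 1 library. COL8A1 is at 7.82 in ASO-SREBF1-S4 and between 28.7 and 37.0 elsewhere, COL5A3 is higher in all 3 targeting libraries than in the controls, and COL22A1 is highest at 17.99 in siSREBF1.

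Some collagens differed between the control libraries too. In siNegative over Mock, 17 of 18 collagen genes at 10 CPM lay above 0 with a median of 0.15 (all genes -0.0011), led by COL15A1 at 0.59 (0.50 to 0.68) and COL1A2 at 0.47 (0.43 to 0.51). None of the 18 passed 2-fold (0.0102% of all genes), and COL15A1 alone passed 1.5-fold (0.469%). In ASO-Neg over Mock, COL9A3 had -0.45 (-0.53 to -0.37), COL18A1 -0.43 (-0.56 to -0.29) and COL6A2 -0.42 (-0.54 to -0.30), while COL12A1 had 0.40 (0.22 to 0.59). Of 17 genes 0 passed 2-fold (0.0921% of all genes) or 1.5-fold (0.594%). At a 1 CPM minimum, where the share of all genes was not computed, COL4A3 passed 2-fold, at -1.08 (-1.92 to -0.27, from 22 and 35 counts). In ASO-Neg over siNegative, 14 of 18 lay below 0 with a median of -0.30 (all genes 0.01), and 0 passed 2-fold (0.092% of all genes) or 1.5-fold (0.409%). These contrasts share libraries with the matched SREBF1 contrasts: COL9A3 was already lower in ASO-Neg than in Mock, and its ASO-SREBF1-S4 value of 212 CPM lay between those of Mock and siNegative.

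The 3 targeting libraries were set against the 3 controls with the quasi-likelihood test of edgeR, and 0 of the 30 collagen genes tested passed an adjusted p of 0.05, against 0.0595% of 15123 genes. At an unadjusted p under 0.05 there were 4 of the 30 (COL5A3, COL27A1, COL25A1 and COL5A2), near the 10.2% of all genes. COL5A3 was at 43.0 ± 1.95 CPM in the controls and 59.2 ± 6.92 in the targeting libraries (SD, n = 3 libraries), a log2 difference of 0.47 ± 0.094 (SE) with an adjusted p of 0.168 in edgeR. COL27A1 was at 121 ± 10.2 and 92.2 ± 15.95 CPM (SD, n = 3), a log2 difference of -0.40 ± 0.12 (SE) with an adjusted p of 0.305 in edgeR. COL5A2 had a log2 ratio of 0.18 and COL25A1 -0.52. DESeq2's Wald test called COL5A3 (DESeq2 adjusted p = 0.0113), with 1.13% of all genes called, and the edgeR fit without a filter on low counts called COL5A3, COL8A1 and COL27A1, with 1.62% of all 31378 genes called. The collagen median was 0.04 against 0.01 for all genes, with 17 above and 13 below 0. The sides did not overlap for 5 of 30 collagens (COL5A2, COL5A3 and COL14A1 higher, COL24A1 and COL25A1 lower), where 17.4% of all genes did not, so the share of collagens was near the background. For COL8A1 the log2 ratio was -0.39 with all libraries and 0.01 without ASO-SREBF1-S4. Since each library had its own reagent, these p-values measure the spread between reagents and cultures together, and Mock, with no oligonucleotide, stands only on the control side.

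The 2 SREBF1 ASOs against the controls gave the lowest collagen p-values. Of 32 collagen genes 0 passed in edgeR (0.043% of all genes did). An unadjusted p under 0.05 in edgeR was found for 7 of the 32, a larger share than the 11.2% of all genes. COL5A3 was higher by 0.55 ± 0.078 on the log2 scale (SE; adjusted p of 0.0602 in edgeR), and COL27A1 lower at -0.55 ± 0.088 (SE; adjusted p of 0.0666). COL12A1 (0.46) was also higher, and COL4A2 (-0.35), COL4A1 (-0.24), COL15A1 (-0.36) and COL25A1 (-0.57) lower. Among the controls only ASO-Neg held an ASO, so ASO chemistry and dose are partly mixed with the SREBF1 target in this comparison. In the chemistry comparison given below, COL15A1 (-0.50) and COL27A1 (-0.33) were also lower with ASOs. DESeq2 called COL5A3 and COL27A1 (1.07% of all genes). With ASO-SREBF1-S1 left out, so that ASO-SREBF1-S4 stood alone and was assumed to vary like the other groups, edgeR called 6 collagens (COL4A2, COL5A3, COL8A1, COL12A1, COL16A1 and COL27A1) and 5.94% of all genes. With ASO-SREBF1-S4 left out, on the same assumption for ASO-SREBF1-S1, it called 4 (COL5A3, COL9A3, COL22A1 and COL27A1) and 5.37% of all genes.

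Between the siRNA pool and the ASO pair, 0 of 32 collagens passed in edgeR (0.147% of all genes did), in DESeq2 or in limma-voom, and 10 had an unadjusted p under 0.05 in edgeR, where 8.71% of all genes did. COL3A1 (log2 ratio 1.18, edgeR adjusted p = 0.225), COL22A1 (1.44), COL5A1 (0.83), COL13A1 (0.70), COL4A5 (0.70), COL15A1 (0.60) and COL27A1 (0.41) were higher in siSREBF1; COL12A1 (-0.61), COL5A3 (-0.29) and COL6A3 (-2.89, under 1 CPM in every library) were lower. The collagen median was 0.21. In this fit siSREBF1 is 1 library that is assumed to vary like the others. It differs from the ASO pair in chemistry and dose as well, and these cannot be told apart. Without 1 of the ASO libraries the comparison is 1 library against 1, with the spread taken from the 3 controls and both lone libraries assumed to vary like them. On that assumption edgeR called COL3A1, COL4A5, COL5A1, COL13A1, COL22A1 and COL27A1 without ASO-SREBF1-S4, where 5.51% of all genes were called, and COL4A2, COL8A1 and COL12A1 without ASO-SREBF1-S1, where 2.46% were. For reagent chemistry, the 3 ASO libraries were set against the 2 siRNA libraries with the target as a term and Mock left out. All ASOs were at 5 nM and all siRNAs at 50 nM, so chemistry and dose cannot be told apart. Of 31 collagens 0 passed in edgeR, in DESeq2 or in limma-voom, and 0% of all 16242 genes passed in edgeR. In edgeR 7 collagens had an unadjusted p under 0.05 (3.88% of all genes did), all lower with ASOs. Among them were COL15A1 (-0.50), COL18A1 (-0.39), COL27A1 (-0.33) and COL22A1 (-1.13).

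Genes that make, process and read collagen were described beside them, and 0 of the 64 genes of these lists passed edgeR's adjusted p in any of the 4 comparisons. At an unadjusted p under 0.05 there were 12 of 55 tested in the targeting comparison (10.2% of all genes), 10 of 57 for the ASO pair (11.2%), 8 of 57 for siSREBF1 against that pair (8.71%) and 2 of 57 for chemistry (3.88%). Of 23 folding and modification genes 22 reached 1 CPM, with P4HB, a subunit of the prolyl hydroxylase, at 1081 to 1225 CPM, and the list median in targeting against control libraries was -0.03. COLGALT1, a collagen galactosyltransferase, had 767, 792 and 807 CPM in the controls against 585, 649 and 679. Of 13 processing and cross-linking genes 10 reached 1 CPM (list median -0.12). ADAMTS3, a procollagen peptidase, had 15.3, 16.7, 16.01, 6.57, 13.7 and 12.2 CPM and was over 2-fold lower in siSREBF1 than in siNegative (log2 ratio -1.35, interval -1.70 to -1.004).

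Of 10 collagen receptor genes 8 reached 1 CPM (list median -0.19). ITGA10 and ITGA11, collagen-binding integrin chains, were both lower in siSREBF1 than in siNegative (log2 ratios -1.12 and -1.11), and ITGA11 in ASO-SREBF1-S1 than in ASO-Neg (-1.04). ITGA10 had 14.7, 23.5, 14.9, 10.8, 8.26 and 8.43 CPM, and ITGA11 had 12.6, 20.5, 14.2, 9.48, 6.89 and 10.5 CPM. For both genes the siNegative value was the highest, above Mock and ASO-Neg. Of 8 collagen-cleaving proteases 6 reached 1 CPM (list median -0.06). MMP1, the interstitial collagenase, had 6.04, 9.72, 10.01, 48.8, 6.93 and 27.3 CPM, higher in siSREBF1 than in siNegative (log2 ratio 2.33, interval 2.09 to 2.57). Over ASO-Neg it had 1.45 (1.19 to 1.71) with ASO-SREBF1-S4 and -0.53 (-0.80 to -0.26) with the other ASO. All 10 TGF-beta ligands, receptors and targets reached 1 CPM (list median 0.03), and none passed 2-fold at 10 CPM in any single-library contrast.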

How the data were processed

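RNA of 6 transfection groups of HT-144 cells was sequenced as strand-specific polyadenylated libraries with paired reads of 75 bases, per the labels' protocols. The authors deposited gene counts (whole reads) for every lane separately, made with STAR 2.6.1a on GRCh38 per the submitters' processing notes; their annotation is not given in the sources used here. The 4 summary lines of each file were left out; 80.65% to 81.82% of read pairs were assigned to a gene. The reverse-strand column was used, since the other strand held 6.47% to 7.79% of the counts of both. Of 58735 identifiers 58207 matched GENCODE 44 (99.93% of counts). Lanes of a library agreed within sampling noise (chi-square per degree of freedom 1.0 to 1.07, against 2.03 to 8.69 between libraries) and were summed.

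Tests used edgeR 4.0.16 in R 4.3.3 (TMM scaling, filterByExpr, quasi-likelihood F test, 2-sided, Benjamini-Hochberg over all genes tested, threshold 0.05), checked on simulated counts, with DESeq2 1.42.0 and limma 3.58.1 as alternatives. The simulated counts had the same spread for every gene and larger changes than most collagens showed, so they do not measure error or power for these data. Single-library log2 ratios are of TMM-scaled CPM without a prior count, with exact binomial 95% intervals. Levels per kilobase used the Ensembl canonical transcript. Exons of 3 members overlapped another gene on the same strand, by at most 0.39% of their length. Every collagen at 1 CPM was named, with all values for a mean of at least 5 CPM or a 2-fold contrast at 1 CPM, and up to 4 genes per pathway list. The members and lists were chosen with earlier results of these data known.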

Additional observations from a re-analysis of the deposited data

Results flagged for a closer look

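For 4 collagen genes the 2 SREBF1 ASOs lay on opposite sides of ASO-Neg with counting intervals that exclude 0. With ASO-SREBF1-S1 first and ASO-SREBF1-S4 second, the log2 ratios of COL1A2 were -0.14 and 0.51. COL5A1 had -0.36 and 0.60, COL9A3 had -0.27 and 0.47, and COL22A1 had -0.52 and 0.74. Each value is 1 library over the same ASO-Neg library, so the difference was not tested. In that order of genes, ASO-SREBF1-S4 had 875, 15.1, 212 and 9.91 CPM. The siNegative control had 798, 13.3, 213 and 9.67 CPM, and ASO-Neg had 614, 9.95, 153 and 5.95. With counts of both strands together COL5A1 had -0.01 in ASO-SREBF1-S1.

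Among genes with collagen symbols outside the 44, the pseudogene COL6A4P1 was counted in every library and reached 1.83 CPM in ASO-Neg, above COL6A3 in all 6 libraries.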

How the results depend on the processing

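No paired analysis was possible because the replicate numbers in the labels are lanes of 1 library, which were summed. Counts of collagens past the threshold in the targeting comparison went from 0 to 1 with DESeq2 and 3 without a low-count filter, in the ASO pair comparison to 2 and 6, in siSREBF1 against the ASO pair to 6 without the filter, and in the chemistry comparison to 3 without it. Leaving out 1 library gave 0 to 6 collagens for the ASO pair and for siSREBF1 against it. Counts over all genes moved more: the targeting comparison, 9, became 171 with DESeq2, 0 with chemistry as a term, 5 with limma-voom, 509 without the filter and 1 to 103 without 1 library; the ASO pair, 7, became 174, 563 without the filter and 1 to 955 (the highest without ASO-SREBF1-S1); siSREBF1 against the pair, 24, became 124, 380 without the filter and 2 to 890 (the highest without ASO-SREBF1-S4); chemistry, 0, became 3, 129 without the filter and up to 4. The log2 ratio of COL8A1 in the targeting comparison, -0.39, ranged from -0.82 without ASO-SREBF1-S1 to 0.012 without ASO-SREBF1-S4, where it reversed. Some of these settings also changed the number of samples or of genes tested, and the causes of the shifts were not tested. Without 1 of the SREBF1 ASOs, the fits with the ASO pair took their spread from the 3 controls alone.

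In single-library contrasts, collagens past 2-fold went from 0 to 1 for siSREBF1 over siNegative at 1 CPM, 3 at 1.5-fold and 0 to 1 without 1 lane. ASO-SREBF1-S4 over ASO-Neg gave 4 at 1.5-fold, siNegative over Mock 1, and ASO-Neg over Mock and over siNegative 1 each at 1 CPM. ASO-SREBF1-S4 over ASO-SREBF1-S1 gave 2 with library totals, 2 with unstranded counts, 1 to 2 without 1 lane, 3 at 1 CPM and 5 at 1.5-fold. The 1.5-fold rule was chosen after seeing the data, and shares of all genes at 1 CPM were not computed. Of the values of single genes under these alternatives, 273 of the fitted log2 ratios and 1665 of the single-library ones kept their direction and side or moved within their interval, 32 passed the threshold and 15 moved further. With 1 library per group, depth limits genes under 1 CPM and replicate spread is not measured.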
